A study of Homo sapiens with 9 samples.

Results

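EGR2, EGR3 and EGR4, the corepressors NAB1 and NAB2, and ARC are 6 of the 57163 genes counted in RNA-seq of human 293T cells that overexpressed 1 transcription factor (TF) each. They were chosen by name, with earlier results of these data known. They are the paralogs of the inserted EGR1, the proteins that bind EGR factors and a target gene of the family. All 6 were found in the count table. 293T is a transformed human embryonic kidney line. Each TF library came from cells that received a lentiviral expression plasmid, used by transfection, with EGFP and the human open reading frame of NRF1, E2F4, EGR1, ZBTB7A, HOXA11, RORA, TFCP2 or NKX2-8 behind the EF1A promoter. The control is called blank in the labels and an empty plasmid in the methods. The study calls the NRF1, E2F4, EGR1 and ZBTB7A libraries those of CLB_TFs, the TFs tied to conserved lncRNAs, and the other 4 those of control TFs. Each of the 9 conditions had 1 library, so no difference from the control library could be checked against replicates. No p-values are given, and intervals cover counting error only.

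EGR proteins are zinc finger TFs that bind GC-rich sites and are switched on within minutes by growth factors, calcium and synaptic activity. NAB1 and NAB2 bind most EGR proteins and usually lower their activity, in part by recruiting the NuRD chromatin remodelling complex, and NAB2 is itself known as a gene that EGR proteins switch on. ARC, the activity-regulated cytoskeleton-associated protein, controls the removal of glutamate receptors from synapses and is an immediate early gene of neurons with known EGR sites.

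The libraries held 14177970 to 18915400 counts, with a median of 17016549. Levels are CPM, the counts of a gene per 1000000 counts of a library whose size was adjusted by the TMM method, with factors of 0.972 to 1.08. The NRF1 and EGR1 libraries had 26166 and 26296 genes with at least 1 count, against 23344 to 24593 in the other libraries. Markers of the line were present throughout, with 13959 to 22612 counts of VIM, 1233 to 1770 of LIN28B and 145 to 203 of PAX2. Of 6 markers of other cell types, PTPRC (leukocytes) had 0 to 1 counts, HBB (erythroid cells) 0, ALB (hepatocytes) 0 to 5, DCN (fibroblasts) 0 to 4 and CDH1 (epithelia) 100 to 168. COL1A1, also a fibroblast marker, had 368 to 621 counts and was 1.47 (1.31 to 1.66) times the control level in the EGR1 library, and its part in the results below was not tested. EGR1 itself had 101744 counts in the EGR1 library, which include plasmid transcripts, and 344 to 436 in the other 8.

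A gene is called changed at a fold of at least 2 in either direction and at least 1 CPM in the higher library, and a gene with at least 1 CPM in either library counts as measured. In the EGR1 library 1 of the 5 measured genes of the group changed, ARC, against 2.5% of all 14263 measured genes that rose there. In the E2F4 library 1 of 6 changed, EGR4, against 3.68% of all measured genes that rose. EGR4 reached 1 CPM in that library alone, so it counts as measured because it was high there. None of the 5 measured genes changed in the other 6 libraries, where the share of all genes that rose was 8.24% (NRF1), 1.92% (ZBTB7A), 1.17% (HOXA11), 0.522% (RORA), 0.491% (TFCP2) and 2.83% (NKX2-8). The count that fell was 0 in each library, where the share of all measured genes that fell was also small, at 0.235% (NRF1), 0.261% (E2F4), 0.28% (EGR1), 0.439% (ZBTB7A), 0.34% (HOXA11), 0.393% (RORA), 0.185% (TFCP2) and 0.879% (NKX2-8). The median log2FC of the measured genes was 0.59 in the EGR1 library, where that of all genes was -0.03. This median is the value of EGR3, whose counting interval against the control library included no change. The median was 0.355 in the E2F4 library and -0.135 (RORA) to 0.125 (ZBTB7A) in the other 6.

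A second description sets the EGR1 library against all 8 others rather than the control library alone. ARC and NAB2 had their highest level in the EGR1 library, above every one of the other 8, which holds for 2 of 6 genes of the group and for 7.36% of the 15445 genes with at least 1 CPM in some library. Both also exceeded the highest of the other 8 by 1.2 times or more, as 1.59% of those genes did. EGR2, EGR3 and NAB1 took places 3, 4 and 3 in the EGR1 library, inside the range of the others, and EGR4 took place 7.

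**Figure D1:**
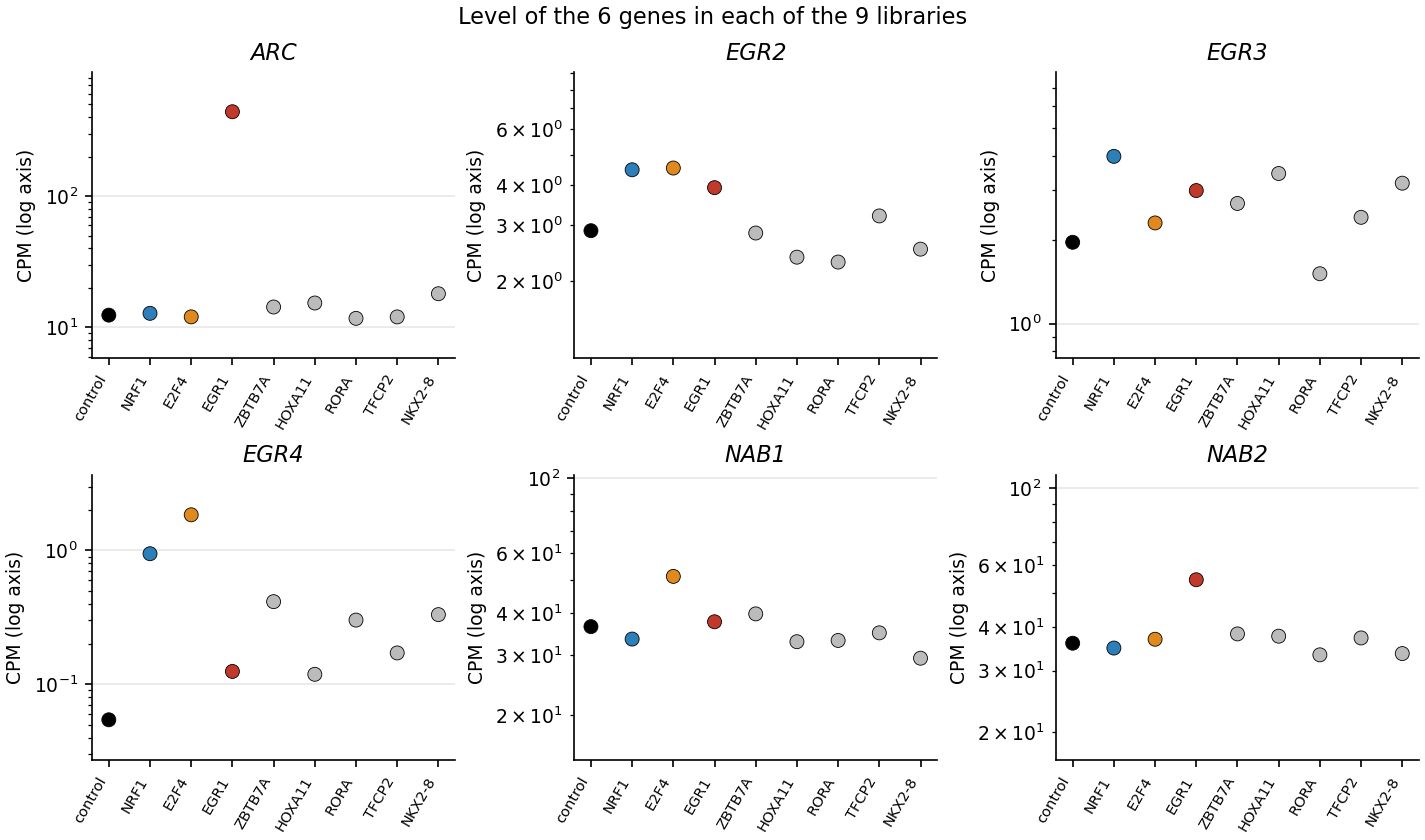
Level of the 6 genes in each of the 9 libraries, as CPM on a log axis with its own range per gene; each point is 1 library, named below the axis. ARC stands at 440.0 CPM in the EGR1 library and at 11.72 to 18.05 elsewhere, NAB2 at 54.58 against 33.29 to 38.21, and EGR4 has its highest points in the E2F4 and NRF1 libraries.

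ARC (ENSG00000198576), the synaptic member, lies on the minus strand of chromosome 8 at 143692405 to 143695833 in GRCh37, with 2991 exon bases. It had 228 counts in the control library, 203 with NRF1, 215 with E2F4, 7046 with EGR1, 207 with ZBTB7A, 258 with HOXA11, 194 with RORA, 210 with TFCP2 and 272 with NKX2-8. The EGR1 library was far above all others, and the other 8 lay close together.

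In CPM, ARC ranged from 11.72 (RORA) to 18.05 (NKX2-8) over the 8 libraries without EGR1, with a coefficient of variation of 16.2%, where counting alone would give 6.69%. The level of 440.0 CPM with EGR1 was 24.4 times the highest of them and 32.0 times the mean of the other 7 TF libraries, and the control library lay inside the range of the other 7. Against the control library the ratio was 35.5 (31.1 to 40.7), and a larger share of expressing cells and more RNA per cell cannot be told apart in RNA from whole cultures. ARC took place 8 of 14263 measured genes by log2FC, a list whose first gene is the inserted EGR1. Among 19818 protein-coding genes ranked by CPM, ARC moved from place 9207 in the control library to place 273.

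Smaller differences of ARC stood between the libraries without EGR1. The NKX2-8 library was 1.46 (1.22 to 1.74) times the control level and the HOXA11 library 1.24 (1.03 to 1.49) times. The other 5 ratios, 0.945 to 1.15, had intervals that included 1. These differences are below the 2-fold rule, and with 1 library each their size against the spread between cultures is not known.

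NAB2 (ENSG00000166886), the corepressor that EGR proteins are known to induce, lies on the plus strand of chromosome 12 at 57482677 to 57489259. It had 661 counts in the control library, 552 with NRF1, 659 with E2F4, 874 with EGR1, 553 with ZBTB7A, 633 with HOXA11, 551 with RORA, 650 with TFCP2 and 506 with NKX2-8. The EGR1 library was the highest of the 9.

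On the CPM scale NAB2 was the steadiest of the 6 genes outside the EGR1 library. The other 8 libraries ranged from 33.29 to 38.21 CPM, a coefficient of variation of 5.2% where counting alone would give 4.1%. With EGR1 it stood at 54.58 CPM, 1.43 times the highest of them, 1.52 (1.37 to 1.68) times the control library and 1.52 times the mean of the other 7 TF libraries. This is below the 2-fold rule, so NAB2 was not called, and 5.27% of measured genes had a log2FC at least as high. The gene STAT6, on the opposite strand, shares 69 exon bases with NAB2, and went from 483 counts in the control library to 431 with EGR1, at a ratio of 1.02 (0.898 to 1.17). NEMP1, 831 bases away, had a ratio of 1.15 (1.07 to 1.24).

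NAB1 (ENSG00000138386), the related corepressor, lies on the plus strand of chromosome 2 at 191511472 to 191557492. It had 670 counts in the control library, 531 with NRF1, 916 with E2F4, 603 with EGR1, 575 with ZBTB7A, 553 with HOXA11, 549 with RORA, 610 with TFCP2 and 443 with NKX2-8. Its EGR1 library did not stand out.

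The NAB1 level was 36.43 CPM in the control library and 37.65 CPM with EGR1, a ratio of 1.03 (0.925 to 1.16) whose interval lies below that of NAB2. The highest NAB1 level was in the E2F4 library, at 51.27 CPM, 1.41 (1.27 to 1.56) times the control library, and the lowest in the NKX2-8 library, at 0.807 (0.714 to 0.911) times. Both stayed under 2-fold. NAB2 did not share the NAB1 value of the E2F4 library, where its ratio was 1.03 (0.92 to 1.14).

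EGR4 (ENSG00000135625), the EGR paralog that lacks the binding site for NAB proteins, lies on the minus strand of chromosome 2 at 73518057 to 73520833. It had 1 count in the control library, 15 with NRF1, 33 with E2F4, 2 with EGR1, 6 with ZBTB7A, 2 with HOXA11, 5 with RORA, 3 with TFCP2 and 5 with NKX2-8. The E2F4 and NRF1 libraries were the highest, and the control library was the lowest of all 9.

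The E2F4 ratio for EGR4 was 34.0, with a counting interval of 5.69 to 1382, and the level 1.85 CPM. In the NRF1 library the ratio was 17.4 (2.68 to 732), but the level of 0.946 CPM lay just under the minimum, so EGR4 was not called there. The single count of the control library sets the size of both ratios. Relative to the mean level of the other 7 TF libraries, EGR4 stood at 5.37 times with E2F4 and at 2 times with NRF1. Of the 3436 genes with 1 count in the control library, 15 rose in the E2F4 library, or 0.437%, and 6, EGR4 among them, had 33 counts or more. In the NRF1 library 65 of these genes rose, or 1.89%, without EGR4, and 72, EGR4 among them, had 15 counts or more. That library also had more genes detected than most, whose part in these values was not tested. With EGR1 the ratio was 2.3 (0.12 to 136), while its 2 counts stood at 0.212 times the mean level of the other 7 TF libraries, so no direction is given for EGR4 there. The ZBTB7A, HOXA11, RORA, TFCP2 and NKX2-8 libraries were likewise above the control library and below the mean of the other TF libraries.

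**Figure D2:**
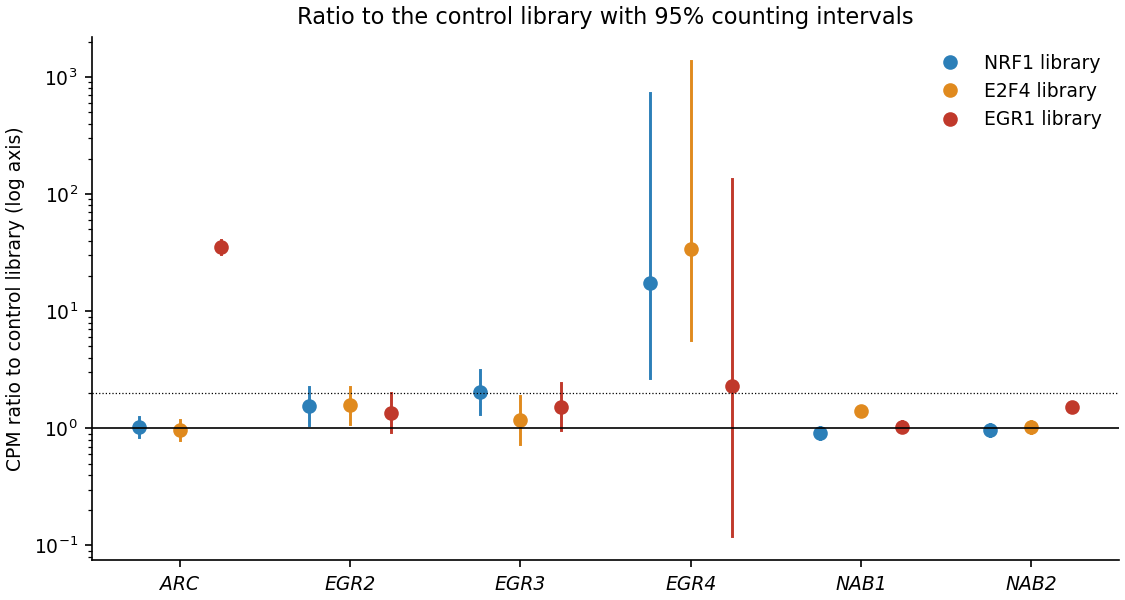
CPM ratio to the control library (log axis) for the 6 genes in the NRF1, E2F4 and EGR1 libraries; points are ratios, vertical lines their 95% exact counting intervals, the solid line equality and the dotted line 2-fold. ARC with EGR1 stands at 35.5 with a short interval, EGR4 with E2F4 at 34.0 with an interval of 5.69 to 1382, and NAB2 with EGR1 at 1.52 above equality but under 2-fold.

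Promoter sequences of RefSeq (GRCh38.p14, 250 bases before to 50 after each start site) were matched for 4 of the 6 genes, in 8 windows. These genes were EGR2, EGR4, NAB1 and NAB2. ARC, the gene called with EGR1, and EGR3 had no window, so their promoters are not described. The sequences below are those of NAB2, highest in the EGR1 library, and of NAB1 and EGR4, both highest in the E2F4 library. Each runs from 250 bases before the start site to 30 bases after it, 5' to 3' on the gene's strand, at chr12:57088864-57089143 (plus) for NAB2, chr2:190648645-190648924 (plus, the first of 3 windows) for NAB1 and chr2:73293519-73293798 (minus) for EGR4. Capitals mark matches on either strand to the EGR motif GCGNGGGCG and to TGACG, the core of the site for CREB, which mediates cAMP and calcium signals; matches may overlap.
NAB2: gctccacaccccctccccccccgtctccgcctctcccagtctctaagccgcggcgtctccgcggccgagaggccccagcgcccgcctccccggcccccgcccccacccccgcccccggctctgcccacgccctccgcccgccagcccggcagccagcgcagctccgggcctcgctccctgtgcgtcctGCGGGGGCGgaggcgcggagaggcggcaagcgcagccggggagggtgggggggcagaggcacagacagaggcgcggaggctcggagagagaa
NAB1: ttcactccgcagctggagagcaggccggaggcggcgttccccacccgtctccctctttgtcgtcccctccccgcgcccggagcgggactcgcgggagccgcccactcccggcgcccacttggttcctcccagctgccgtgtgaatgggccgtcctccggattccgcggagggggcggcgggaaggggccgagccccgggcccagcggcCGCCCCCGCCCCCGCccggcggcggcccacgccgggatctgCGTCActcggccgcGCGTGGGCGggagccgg
EGR4: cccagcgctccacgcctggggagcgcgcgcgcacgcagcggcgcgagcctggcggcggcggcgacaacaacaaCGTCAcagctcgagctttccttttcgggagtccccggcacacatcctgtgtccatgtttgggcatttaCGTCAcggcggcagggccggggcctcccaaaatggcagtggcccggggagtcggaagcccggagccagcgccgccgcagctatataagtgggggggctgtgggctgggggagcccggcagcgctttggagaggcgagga

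The NAB2 window held 1 EGR motif, GCGGGGGCG, from 62 to 54 bases before the start site. The first NAB1 window held 3, which were an overlapping pair on the opposite strand that ended 28 bases before the start site, and GCGTGGGCG from base 14 to base 22 after it. The second NAB1 window, which overlaps the first, held 4. These were the same 3 and CGCCCGCGC on the opposite strand, from base 9 to base 17 after its own start site. The second of the 3 EGR2 windows held 1, CGCCCGCGC on the opposite strand, from base 9 to base 17 after its start site. Of all 35116 windows of this length, 9.43% held an EGR motif, 5.07% the GCGGGGGCG form and 0.795% the GCGTGGGCG form. Of 27305 genes, 11.2% held an EGR motif in at least 1 window. The windows of NAB2 and NAB1 consisted of G and C to 78.3% and 77.0%.

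The EGR4 window held no EGR motif and no match to the E2F motif (TTTCGCGC, TTTGGCGC, TTTCCCGC or TTTGCCGC), which 3.31% of windows held. It had 2 matches to TGACG, which begin 177 and 109 bases before the start site, and 24.6% of windows had at least 1. Another EGR2 window held the same core on both sides of the CArG box CCATATATGG, the site of serum response factor, and 1.29% of windows held a CArG box. The matches are a description of these letters.

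EGR2 (ENSG00000122877), the paralog known for hindbrain segments and myelination, lies on the minus strand of chromosome 10 at 64571756 to 64679660. It had 53 counts in the control library, 71 with NRF1, 81 with E2F4, 63 with EGR1, 41 with ZBTB7A, 40 with HOXA11, 38 with RORA, 56 with TFCP2 and 38 with NKX2-8. The E2F4 and NRF1 libraries were the highest, followed by EGR1.

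EGR2 levels ran from 2.30 CPM (RORA) to 4.53 CPM (E2F4). The ratio to the control library was 1.57 (1.10 to 2.27) with E2F4, 1.55 (1.07 to 2.26) with NRF1 and 1.36 (0.932 to 2.01) with EGR1. No EGR2 value passed the 2-fold rule, and the interval of the EGR1 library included 1. A change of EGR2 with EGR1 beyond a factor of 2.01 is outside that interval, which bounds it for counting error only.

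EGR3 (ENSG00000179388), the paralog known for muscle spindles and for T cells, lies on the minus strand of chromosome 8 at 22545172 to 22550815. It had 36 counts in the control library, 63 with NRF1, 41 with E2F4, 48 with EGR1, 39 with ZBTB7A, 58 with HOXA11, 25 with RORA, 42 with TFCP2 and 48 with NKX2-8. The NRF1 and HOXA11 libraries were the highest and RORA the lowest.

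EGR3 stood at 1.96 CPM in the control library and at 3.97 CPM with NRF1, a ratio of 2.03 (1.33 to 3.15) whose log2FC of 0.98, computed with a prior count of 2, fell just under the rule. The ratio was 1.76 (1.14 to 2.75) with HOXA11, 1.63 (1.03 to 2.58) with NKX2-8 and 1.53 (0.974 to 2.43) with EGR1. Relative to the mean level of the other 7 TF libraries, the EGR1 library was at 1.08 times and the NRF1 library at 1.5 times. EGR3 shares 42 exon bases with an unnamed lncRNA gene on the opposite strand that had 20 counts with EGR1 and 6 in the control library, a ratio of 3.83 (1.48 to 11.7). The other libraries had 0 to 19 counts of it, and reads of the shared bases cannot be told apart without the strand mode of the counting, not given in the sources used here.

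**Figure D3:**
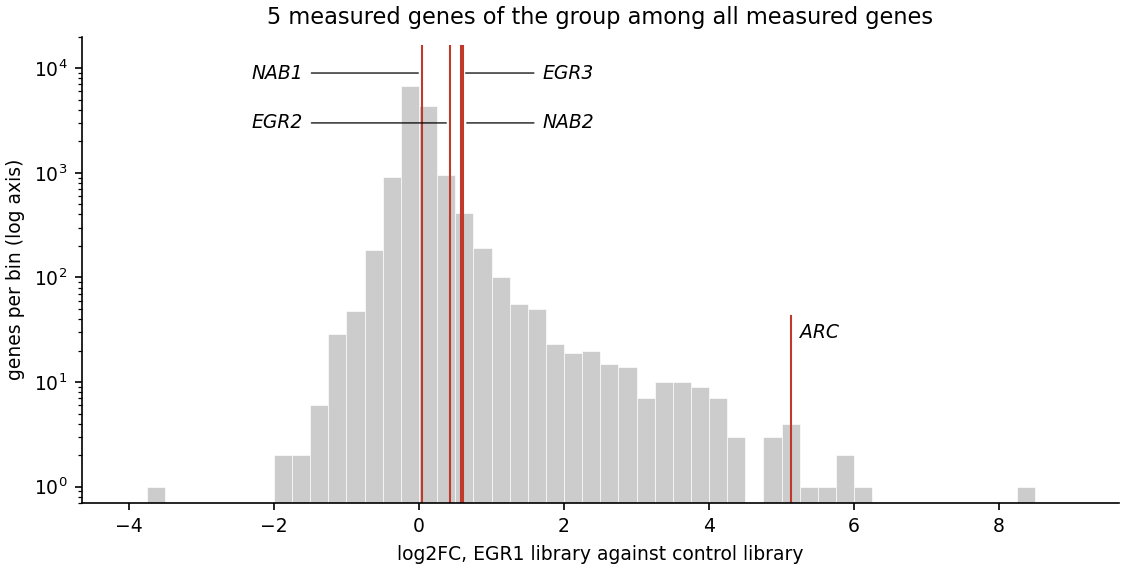
Number of measured genes per log2FC bin of 0.25 in the EGR1 library against the control library (log axis), with red lines at the 5 measured genes of the group. ARC lies at 5.14 in the right tail, at place 8 of 14263 genes, while NAB2 at 0.60, EGR3 at 0.59, EGR2 at 0.43 and NAB1 at 0.05 lie in the main body.

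Levels per exon length order the group differently from fold changes. In the control library NAB2 had 11.9 CPM per kb of exon (RPKM), NAB1 7.45, ARC 4.14, EGR2 0.781, EGR3 0.403 and EGR4 0.0229, and EGR1 itself had 5.96. In the EGR1 library ARC came first of the 6 with 147 RPKM, ahead of NAB2 with 18.1 and NAB1 with 7.70. The EGR paralogs stayed at 1.07 (EGR2), 0.617 (EGR3) and 0.0525 (EGR4) RPKM there, against 2025 for the inserted EGR1. The order of the 5 genes other than ARC was the same in both libraries. In the control library the counts of NAB2 and NAB1, 661 and 670, give RPKM values apart only through exon lengths of 3010 and 4887 bases.

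Genes within 50 kb of the group were 29 in number, of which 9 were measured with EGR1 and 1 was called, the lncRNA gene that overlaps EGR3. Of all measured genes 2.5% rose there. The lncRNA gene had 0.326 CPM in the control library and 1.25 CPM with EGR1, so it counts as measured because it was high there. Near ARC, JRK had a ratio of 0.989 (0.897 to 1.09), and an unnamed lncRNA 5901 bases away on the opposite strand had 4 counts with EGR1 and 0 in each of the other 8 libraries. The measured neighbours of NAB2 had ratios of 1.02 to 1.15. Near EGR2 and EGR4, ADO, CCT7 and FBXO41 had ratios of 0.928, 0.941 and 1.07. JRK was the only measured neighbour of ARC.

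Across the 8 TF libraries, the protein-coding genes whose log2FC came closest to those of ARC were NMRK2, SRPK3, KISS1R, TMEM52 and COL11A2, by the root mean square difference over the libraries. The difference was 0.54 for NMRK2, a kinase of nicotinamide riboside, which had 255 counts with EGR1 and 9 to 32 elsewhere. It was 0.66 for SRPK3, a kinase of splicing factors known in muscle, with 153 counts with EGR1 and 3 to 12 elsewhere, and 0.85 for KISS1R, the kisspeptin receptor, with 765 and 37 to 92. TMEM52, a membrane protein, had 761 counts with EGR1 and 76 to 125 elsewhere, and COL11A2, a chain of type XI collagen, had 201 and 24 to 42.

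The genes closest to EGR4 were STMND1, WNT4, PAX1, BICDL1 and OLFM1, with differences of 0.36 to 0.55. WNT4, a Wnt ligand, had 155 counts with E2F4, 55 with NRF1 and 16 in the control library. BICDL1, an adaptor of the dynein motor, had 581 counts with E2F4, 148 with NRF1 and 42 in the control library, and OLFM1, a secreted glycoprotein of neurons, had 433, 152 and 40. PAX1, a TF of the axial skeleton, had 56, 31 and 5, and STMND1 had 138, 72 and 16. All these genes were picked for their likeness to EGR4 over these libraries, so the shared order of the libraries is a product of the choice.

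**Figure D4:**
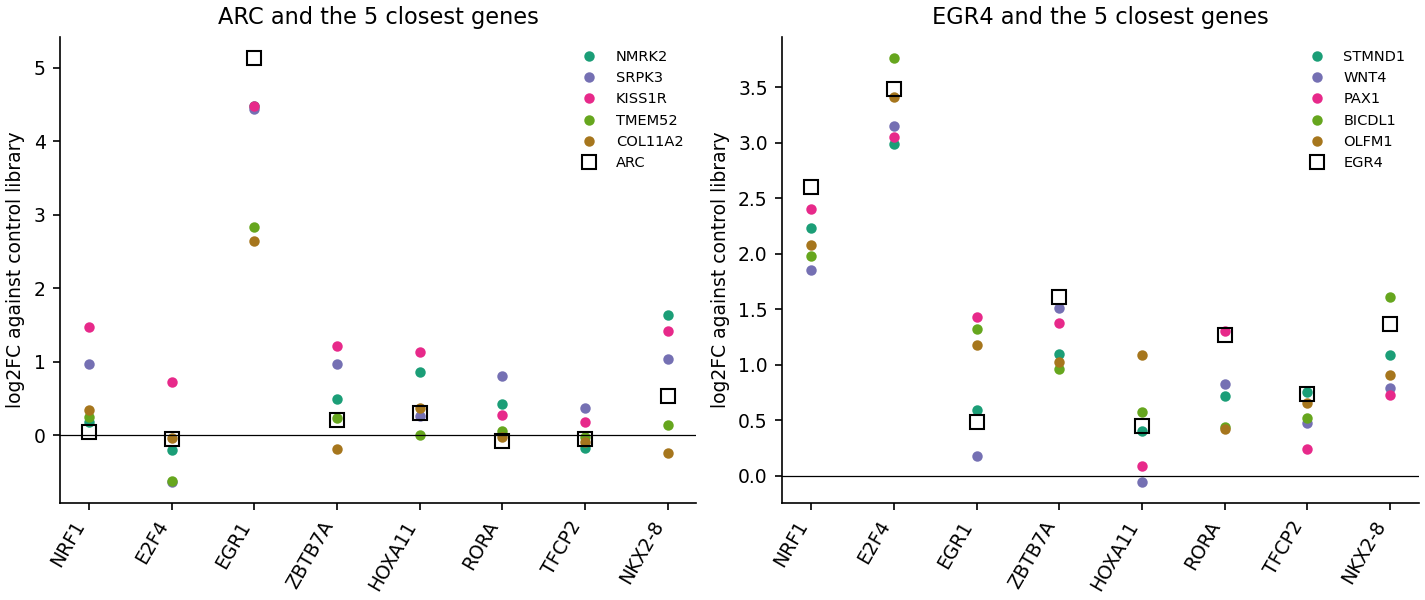
log2FC against the control library in each of the 8 TF libraries for ARC (left) and EGR4 (right), as open squares, with the 5 protein-coding genes closest to each as coloured points. For ARC and its 5 genes the EGR1 library is the highest, and for EGR4 and its 5 genes the E2F4 library, which the choice of the genes by likeness brings about.

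Lists of genes around the group were read in the same way, with 2.5% of all measured genes risen in the EGR1 library and a median log2FC of -0.03. Of 29 measured EGR target genes 5 rose and 0 fell with EGR1, and their median log2FC was 0.02. As many rose with E2F4, 5 of 29 with a median of 0.22, where 3.68% of all measured genes rose. With NRF1 4 of 31 rose, with a median of 0.15, where 8.24% of all measured genes rose. IGF2 is among the genes that rose in each of these libraries. At 0.816 CPM in the control library and 1.81 CPM with EGR1, it counts as measured because it was high there. THBS1, among those that rose with NRF1, was not measured with EGR1 and likewise counts through its NRF1 level. GADD45B, a stress-induced gene, rose from 438 counts without a TF to 1925 with EGR1, where the other 7 libraries had 361 to 639, a ratio of 5.05 (4.55 to 5.61). GDF15, a secreted stress cytokine, rose from 54 counts to 257, where the other 7 had 44 to 148, a ratio of 5.47 (4.06 to 7.47). PDGFB, SYN1 and IGF2 had 56, 67 and 29 counts with EGR1 and up to 158, 106 and 57 in other TF libraries, so their EGR1 values lay inside the range of the others, unlike those of ARC and NAB2. GDF15 also rose in the RORA, TFCP2 and NKX2-8 libraries.

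Of 37 measured immediate early genes, the class to which ARC and the EGR genes belong, 1 rose with EGR1 and 0 fell, with a median log2FC of 0.18. JUNB, a subunit of AP-1, had 2823 counts with EGR1 and 769 to 1032 in the other 8 libraries, a ratio of 3.67 (3.40 to 3.96). DUSP2, a MAP kinase phosphatase, came next with 21 counts against 11, but had up to 67 in another library and rose with E2F4. Its ratio with EGR1 was 2.19 (1.01 to 5.04). At 0.598 CPM in the control library and 1.31 CPM with EGR1, DUSP2 counts as measured there because of its EGR1 level. ZFP36, an RNA-binding protein that destabilizes mRNAs, had 143 against 82, with up to 135 in the other libraries. Both had a log2FC just under the rule with EGR1 (0.99 and 0.98).

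Of 18 measured genes listed as upstream of EGR genes, 0 rose and 0 fell with EGR1, with a median of -0.06. Beside serum response and ETS factors and kinases, the list holds CREB1, ATF1, OGT, TET1, TET2 and TET3. TET3 had the largest ratio, 1.65 (1.43 to 1.90), at 29.54 CPM with EGR1 against 17.94 to 29.11 in the other 8 libraries. Of 15 NuRD subunits, the complex that NAB2 recruits, 0 rose and 0 fell, with a median of -0.07. CHD5, a remodelling subunit known from neurons, came first at a ratio of 1.61 (0.983 to 2.66), but it rose in the NRF1, E2F4 and ZBTB7A libraries and had 42 counts with EGR1 against up to 76 elsewhere.

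Lists of genes tied to the paralogs gave no call with EGR1. The lists held 13 measured myelin and Schwann cell genes and 7 hindbrain genes for EGR2, and 9 T cell anergy genes for EGR2 and EGR3. In each 0 rose and 0 fell, with medians of 0.00, -0.14 and 0.01. Of all measured genes 2.5% rose and 0.28% fell there, so 0 calls among so few genes is near that share. NGFR, a neurotrophin receptor, had the largest ratio, 1.84 (1.48 to 2.29), and higher levels in other TF libraries.

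Of 19 measured synaptic partners and regulators of ARC, 0 rose and 0 fell, with a median of 0.04. BAIAP2, an adaptor of the actin cytoskeleton at synapses, went from 582 counts to 971 with EGR1, where the other 7 libraries had 472 to 675, a ratio of 1.92 (1.73 to 2.13). CAMK2B, a calcium-dependent kinase that binds ARC, had a ratio of 1.64 (1.32 to 2.05) with EGR1 and up to 558 counts in another library. Of 23 other zinc finger factors of GC-rich sites, 1 rose with EGR1, KLF14, with 17 counts against 8, and 0 fell. Its ratio was 2.44 (0.998 to 6.53), an interval that included 1. At 0.435 CPM in the control library and 1.06 CPM with EGR1, it counts as measured there because of its EGR1 level. KLF14 also rose with NRF1 and ZBTB7A and had up to 21 counts elsewhere. KLF9 had a ratio of 1.47 (1.37 to 1.57).

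**Figure D5:**
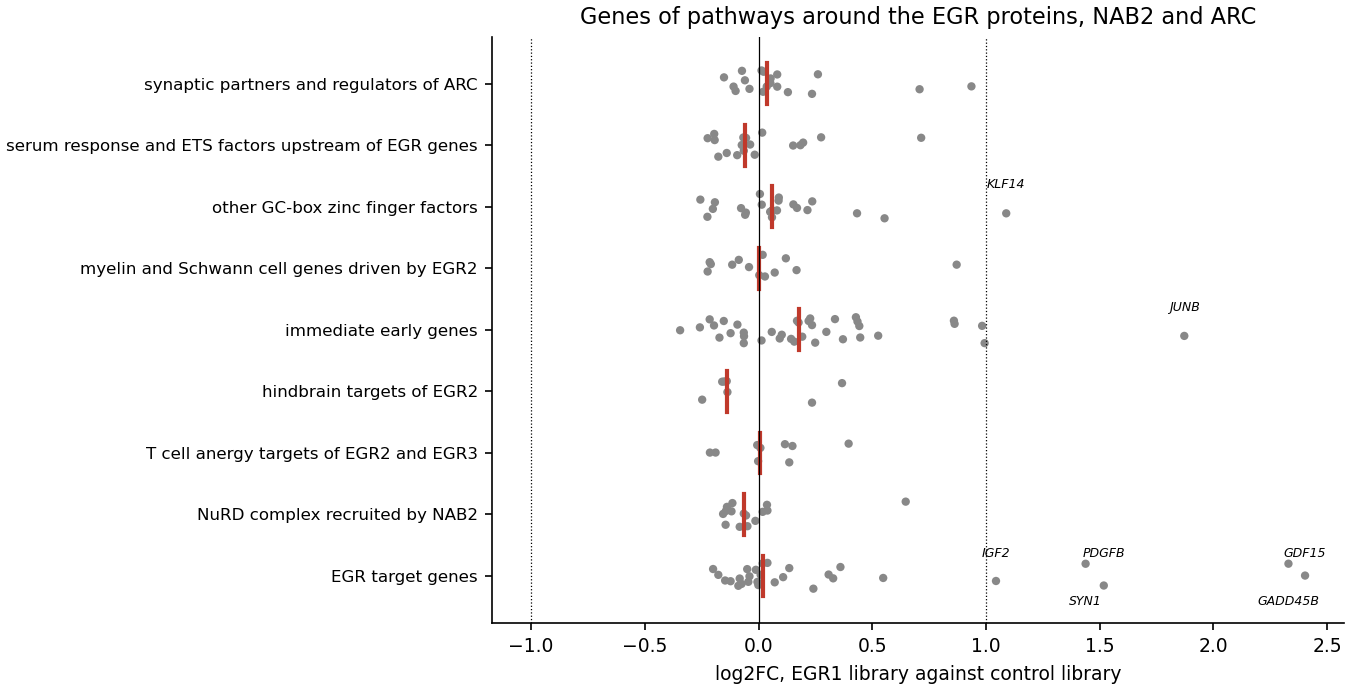
log2FC in the EGR1 library against the control library for measured genes of 9 lists; each point is 1 gene, red bars are list medians, dotted lines mark a log2FC of 1 and -1, and genes past them are named. List medians lie between -0.14 and 0.18, and 7 genes stand past a log2FC of 1, 5 of them among the EGR target genes.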

How the data were processed

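RNA of 9 libraries of 293T cells was sequenced. The deposited table holds raw counts per gene, made by the authors with FastQC 0.11.2 for read quality, STAR 2.6.0c for mapping to GRCh37 and featureCounts 1.6.3 for counting reads that mapped once, together with the exon length of each gene. The labels name a directional kit, while the strand mode used for counting was not given in the sources used here. Symbols came from GENCODE v44lift37.

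From the counts, CPM was computed with TMM in edgeR 4.0.16 (R 4.3.3), log2FC against the control library with a prior count of 2, and ratios of CPM with 95% exact conditional binomial intervals (scipy 1.17.1), which cover counting error only. A gene was called changed at 2-fold or more and at least 1 CPM in the higher library. With 14177970 to 18915400 counts per library and 1 library per condition, no test was made for the main results.

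The members and lists were chosen with earlier results of these data known. Named genes were the 6 members, genes within 50 kb of them, the 5 protein-coding genes closest in log2FC over the 8 TF libraries to each member that changed, and the leading 3 measured genes of each list, of which some are left out. Alternatives were library totals or DESeq2 1.42.0 size factors, other prior counts, minimum levels and folds, the mean of the other 7 TF libraries as reference, and edgeR's exact test at an assumed BCV of 0.2 or 0.4.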

Additional observations from a re-analysis of the deposited data

How the results depend on the processing

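Of 326 recomputed values, 294 moved by less than their counting interval or the limit for counts and 32 moved further. No called value changed sign. Of 240 log2FC values of the group, 21 changed sign, none of them called. Of these, 18 did so with the mean of the other 7 TF libraries as reference, and 3 with library totals, which were NAB1 and NAB2 with NRF1 and EGR2 with ZBTB7A. EGR4 turned from above to below the reference in 6 libraries, to a log2FC of -1.57 to -0.32. ARC remained the 1 gene of the group changed in the EGR1 library under each alternative except the 1.5-fold rule, which gave 3 (EGR3, NAB2 and ARC). In the NRF1 library, where 0 changed, library totals without TMM gave 2 (EGR3 and EGR4), a prior count of 0.5 gave 1 (EGR3), no minimum CPM gave 1 (EGR4) and the 1.5-fold rule gave 2 (EGR2 and EGR3). In the E2F4 library, where EGR4 changed, a minimum of 5 CPM and the exact test at a BCV of 0.4 gave 0, and the 1.5-fold rule gave 2 (EGR2 and EGR4). Without a minimum CPM, EGR4 made 1 in each of the ZBTB7A, RORA and NKX2-8 libraries, and at 1.5-fold EGR3 made 1 in each of the HOXA11 and NKX2-8 libraries. With the mean of the other 7 TF libraries as reference, ARC was added in every library but that of EGR1, since this mean holds the EGR1 library, so the count was 2 with E2F4 and 1 with each of NRF1, ZBTB7A, HOXA11, RORA, TFCP2 and NKX2-8. The log2FC of EGR4 was then 2.08 with E2F4 and 0.84 with NRF1, below the values against the control library. EGR4 is limited by depth, with 1 to 33 counts, and every gene of the group, ARC and NAB2 included, by the lack of a second library. No paired analysis was possible because each condition had 1 library and the labels give no replicate numbers.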
